A study of Rattus norvegicus with 15 samples.

Results

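Liver levels of 39 genes of DNA replication and mitosis were followed across 3 groups of rats. The genes were taken by symbol from a table of 21576 genes, and each of the 39 was found there. They fall into 12 genes of DNA replication and 27 of mitosis. A filter on low counts kept 13163 genes for testing, among them all 12 replication genes and 25 of the mitosis genes. The mitosis genes Ccnb1 and Bub1b did not pass it, and where a call is named for them it comes from another fit.

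The libraries were made from liver RNA of male Sprague-Dawley rats. ZXD rats ate a high-fat feed and were dosed by mouth with Zexie Decoction, a herbal preparation of Alisma and Atractylodes, at 2.2 g per kg per day. HFD rats ate the same feed and were given saline. CON rats ate normal chow. The feed of the ZXD and HFD groups was 66% base forage with 16.7% sucrose, 8.3% yolk and 7% lard. It also held 2% cholesterol, 0.2% propylthiouracil, which blocks thyroid hormone synthesis, and 0.3% sodium cholate, a bile salt. This feed was eaten for 4 weeks before dosing began and for the 4 weeks of dosing. Each group had 10 rats, and 5 libraries per group were analysed, numbered 1 to 5 in their titles. The labels do not say which rats the libraries came from, so p-values measure the spread between these libraries, which may be partly technical. HFD versus CON asked what the feed changed, ZXD versus HFD what the decoction changed, and ZXD versus CON set treated rats on the feed against rats on chow.

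A cell that divides first copies its DNA and then shares it out. For replication, a ring of Mcm proteins unwinds the double helix, the clamp Pcna holds the polymerases on the strand, and ribonucleotide reductase, thymidylate synthase and thymidine kinase supply the nucleotides. For mitosis, cyclins switch on Cdk1, kinesins and spindle proteins build the spindle, a checkpoint holds the chromosomes until all are attached, and a contractile ring parts the daughter cells. Most hepatocytes of an adult liver rest outside the cycle and re-enter it after loss of tissue, while immune cells that enter the liver can also divide there. Transcription of replication genes is classically driven by E2F factors, and that of mitosis genes by complexes that bind CCAAT boxes and the cell cycle homology region, one of which holds the member Mybl2.

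Promoter sequences show how far the 2 sets share these elements. RefSeq promoters of the rat assembly GRCr8, running from 250 bases before to 50 bases after a gene's start, were found for 31 of the 39 genes. Both strands were searched for CCAAT, for the cell cycle homology region, spelled TTTGAA, with TTCGAA as its other spelling, and for E2F motifs. The E2F motif was searched in its form TTCCCGC, in the related form TTGGCGC, in the form TTCGCGC and in the further form TTGCCGC. An E2F motif stood in 7 of 9 replication promoters (77.8%), in 5 of 22 mitosis promoters (22.7%) and in 10.0% of all 27457 promoters of that length. CCAAT stood in 6 of 9 replication promoters (66.7%), in 18 of 22 mitosis promoters (81.8%) and in 37.7% of all. The cell cycle homology region stood in 3 of 9 replication promoters (33.3%), in 15 of 22 mitosis promoters (68.2%) and in 19.5% of all. Both of these elements stood together in 2 of 9 replication promoters (22.2%), in 14 of 22 mitosis promoters (63.6%) and in 7.83% of all. These are matches of letters, not measured binding sites, and matches on opposite strands can overlap.

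The promoters printed here are those of the 3 replication and the 3 mitosis genes with the smallest p in HFD versus CON that had a promoter, followed by Top2a and Mki67, which were chosen after their values were seen as typical mitosis genes. Each runs 5′ to 3′ in the direction of its gene, and capitals mark the motif matches on either strand. In Mcm2, at chr4:122918045-122918344 on the minus strand, the capitals are 2 cell cycle homology regions and 2 overlapping E2F motifs.
Mcm2: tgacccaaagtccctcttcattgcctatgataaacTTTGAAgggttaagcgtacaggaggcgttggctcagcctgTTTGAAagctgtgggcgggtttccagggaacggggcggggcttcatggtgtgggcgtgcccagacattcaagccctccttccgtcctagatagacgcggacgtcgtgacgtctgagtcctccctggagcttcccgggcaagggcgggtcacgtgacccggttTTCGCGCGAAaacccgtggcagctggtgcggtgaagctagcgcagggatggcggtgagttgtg
Mcm3, at chr9:30733697-30733996 on the minus strand, carried 3 CCAAT boxes and 2 E2F motifs.
Mcm3: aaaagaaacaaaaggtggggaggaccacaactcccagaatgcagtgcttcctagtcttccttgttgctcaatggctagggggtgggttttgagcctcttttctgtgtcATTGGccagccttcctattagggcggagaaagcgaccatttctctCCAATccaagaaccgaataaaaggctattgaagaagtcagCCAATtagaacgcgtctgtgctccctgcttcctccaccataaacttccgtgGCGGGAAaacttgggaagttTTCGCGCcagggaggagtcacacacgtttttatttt
Mcm6, at chr13:42404303-42404602 on the minus strand, carried 2 CCAAT boxes and 5 E2F motifs, some of which overlap.
Mcm6: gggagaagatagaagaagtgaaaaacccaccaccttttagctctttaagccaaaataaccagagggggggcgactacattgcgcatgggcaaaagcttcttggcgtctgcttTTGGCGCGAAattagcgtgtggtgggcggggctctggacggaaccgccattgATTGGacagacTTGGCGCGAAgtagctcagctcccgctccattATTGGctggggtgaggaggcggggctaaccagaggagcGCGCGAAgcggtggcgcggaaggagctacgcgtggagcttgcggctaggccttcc
Kif11, at chr1:244536617-244536916 on the plus strand, carried 1 CCAAT box and neither of the other elements.
Kif11: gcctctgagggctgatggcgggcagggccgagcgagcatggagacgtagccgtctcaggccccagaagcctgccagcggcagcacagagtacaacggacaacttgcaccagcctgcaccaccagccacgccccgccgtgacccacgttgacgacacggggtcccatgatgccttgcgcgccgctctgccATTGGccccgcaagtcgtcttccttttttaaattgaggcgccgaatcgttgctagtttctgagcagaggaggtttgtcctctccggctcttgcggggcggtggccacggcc
Mybl2, at chr3:172124555-172124854 on the plus strand, carried none of the spellings searched for in this window. Elements in other spellings were not searched for, so their absence is not shown.
Mybl2: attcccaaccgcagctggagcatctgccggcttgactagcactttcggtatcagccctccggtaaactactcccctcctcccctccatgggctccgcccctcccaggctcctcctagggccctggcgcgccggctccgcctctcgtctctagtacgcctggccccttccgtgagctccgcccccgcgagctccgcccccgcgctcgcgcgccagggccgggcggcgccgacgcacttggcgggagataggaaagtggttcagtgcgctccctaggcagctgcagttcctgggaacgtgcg
Kif20a, at chr18:26504172-26504471 on the plus strand, carried 3 CCAAT boxes.
Kif20a: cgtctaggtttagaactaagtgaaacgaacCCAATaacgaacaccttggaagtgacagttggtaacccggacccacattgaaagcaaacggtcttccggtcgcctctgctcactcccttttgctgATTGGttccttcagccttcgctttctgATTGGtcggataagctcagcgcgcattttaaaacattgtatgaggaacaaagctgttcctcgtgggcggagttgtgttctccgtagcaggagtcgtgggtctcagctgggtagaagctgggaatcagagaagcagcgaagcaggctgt
Top2a, at chr10:84473044-84473343 on the minus strand, carried 4 CCAAT boxes and 2 cell cycle homology regions.
Top2a: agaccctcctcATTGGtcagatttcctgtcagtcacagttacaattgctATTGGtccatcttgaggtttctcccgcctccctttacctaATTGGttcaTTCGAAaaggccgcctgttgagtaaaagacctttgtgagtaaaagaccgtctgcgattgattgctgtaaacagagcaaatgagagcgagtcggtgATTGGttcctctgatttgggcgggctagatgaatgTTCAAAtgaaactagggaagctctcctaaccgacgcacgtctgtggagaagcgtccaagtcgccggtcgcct
Mki67, at chr1:199952544-199952843 on the minus strand, carried 4 CCAAT boxes, 2 cell cycle homology regions and 1 E2F motif.
Mki67: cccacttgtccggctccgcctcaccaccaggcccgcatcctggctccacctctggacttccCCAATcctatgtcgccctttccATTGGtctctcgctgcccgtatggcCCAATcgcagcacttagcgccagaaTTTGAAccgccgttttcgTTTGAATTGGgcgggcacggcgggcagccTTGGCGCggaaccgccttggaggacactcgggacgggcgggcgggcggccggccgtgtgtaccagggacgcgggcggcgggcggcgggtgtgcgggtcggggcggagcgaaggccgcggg

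Libraries held 12552449 to 14228052 counts. Values per library are CPM, counts scaled to a fixed library size after correction with TMM, a factor per library that lay between 0.793 and 1.28 and was highest in ZXD 4. The limit that a count of 0 allows is 3 counts, or 0.183 to 0.285 CPM, and it takes in counting error only. Summed hepatocyte markers were 53708 to 121566 CPM in ZXD, 76672 to 109451 CPM in HFD and 168842 to 205534 CPM in CON, so the liver label holds in every library. With library totals as the scale in place of TMM, the median log2 fold change of all tested genes was 0.46 in ZXD versus CON, against 0.03 with TMM, and 0.44 in HFD versus CON, against 0.02 with TMM. Changes against CON are therefore given relative to the TMM scale.

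In CON livers the replication genes covered a wide range of levels, while the mitosis genes lay between the levels of Cenpf and Aurka. Levels between genes are compared as CPM per kilobase of the deposited gene length. Pcna, the sliding clamp, stood highest at 10.3 ± 1.89 CPM per kilobase in CON (SD, n = 5). Mcm7, a helicase subunit, followed at 5.52 ± 0.726, Tk1, thymidine kinase, at 5.02 ± 1.18 and Rrm1, the large subunit of ribonucleotide reductase, at 3.67 ± 1.03 CPM per kilobase. Mcm7 and Tk1 did not differ beyond their spread. Rrm2, the small subunit whose supply is tied to S phase, was the lowest replication gene at 0.0564 ± 0.0773 CPM per kilobase. Among mitosis genes, Aurka, a kinase of the spindle poles, was highest at 1.204 ± 0.328 CPM per kilobase, within the spread of Birc5 at 1.05 ± 0.372 and Kif20a at 1.05 ± 0.476. Cenpf, a kinetochore protein, was lowest at 0.0552 ± 0.0541 CPM per kilobase.

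Both sets reached their highest levels in 3 of the ZXD livers. The summed level of the 27 mitosis genes was 26.4, 25.5, 113, 259 and 124 CPM in ZXD 1 to 5, 40.3, 71.1, 37.3, 26.4 and 69.7 CPM in HFD 1 to 5 and 33.1, 33.9, 17.1, 31.6 and 22.8 CPM in CON 1 to 5. ZXD 3, 4 and 5 lay above all HFD and CON libraries, whereas ZXD 1 and 2 lay within the CON range. The summed level of the 12 replication genes was 78.6, 84.9, 141, 227 and 160.0 CPM in ZXD 1 to 5, 86.4, 90.04, 78.7, 79.6 and 90.3 CPM in HFD 1 to 5 and 86.4, 62.4, 72.8, 75.1 and 71.7 CPM in CON 1 to 5. Here too ZXD 3, 4 and 5 stood above every other library, by a smaller factor. The labels give ZXD 3, 4 and 5 nothing that sets them apart from ZXD 1 and 2. In whole liver RNA, fewer cells of a type and less RNA per cell cannot be told apart.

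**Figure D1:**
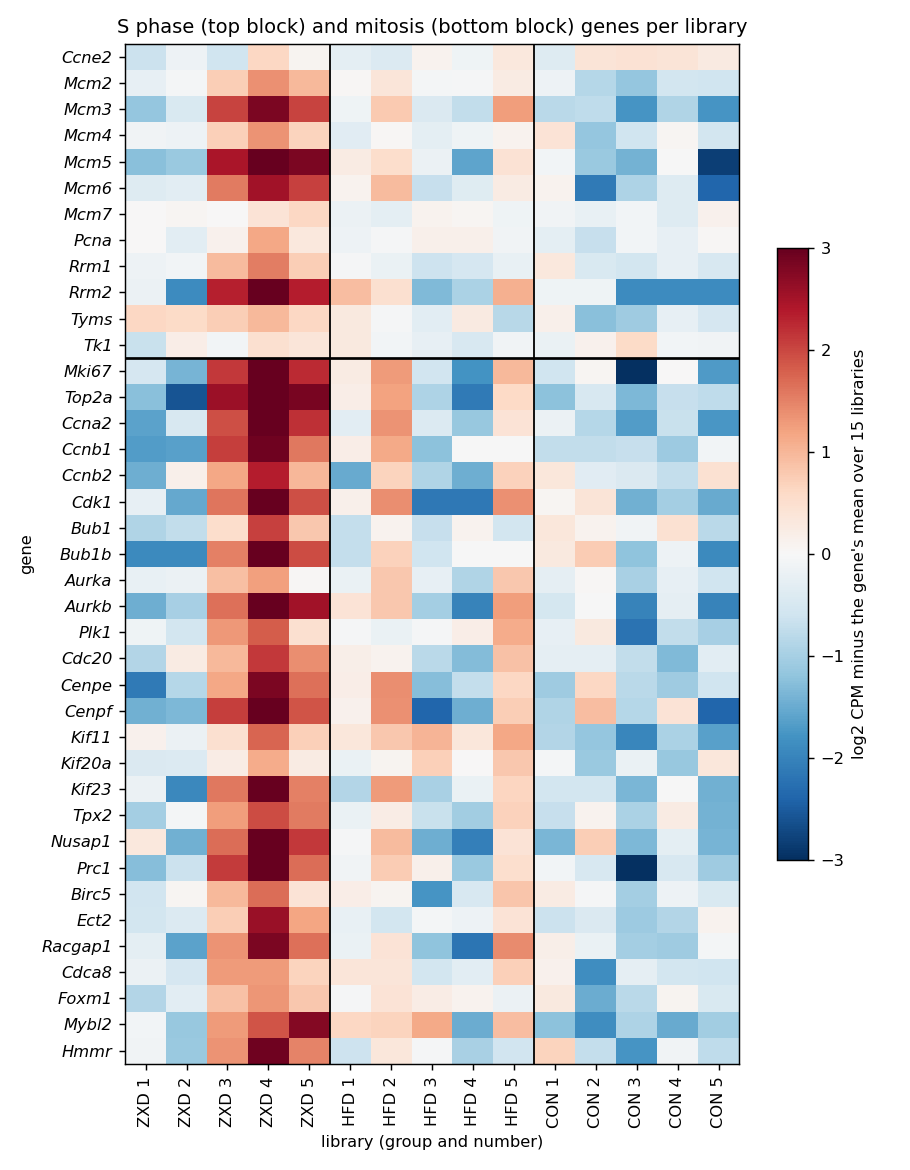
Heat map of log2 CPM minus each gene's mean over 15 libraries, with the 12 replication genes in the top block, the 27 mitosis genes in the bottom block and the libraries ordered ZXD, HFD, CON. Columns ZXD 3, 4 and 5 are high for most genes, ZXD 4 is the highest column for 35 of 39 genes, and ZXD 1 and 2 are near the CON columns.

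The library order was shared by most of the genes. The ZXD libraries named here were singled out by the summed levels of these same genes. The counts that follow therefore describe the pattern and are no separate support for it. ZXD 4 held the highest level of 25 of 27 mitosis genes and of 10 of 12 replication genes, against 18.9% of all tested genes. The exceptions were Mcm7 and Mybl2, highest in ZXD 5, Cdca8, highest in ZXD 3, and Tk1, highest in CON 3. ZXD 3, 4 and 5 were the 3 highest libraries for 19 mitosis genes and 7 replication genes, against 4.52% of all tested genes. For 24 mitosis genes (88.9%) and 9 replication genes (75%), neither ZXD 1 nor ZXD 2 exceeded the highest CON library, against 65.3% of all tested genes. The share of replication genes was not far from that of all genes. The spread within a group followed: the median range over libraries of a mitosis gene, on the log2 scale, was 4.04 in ZXD, 2.19 in HFD and 1.58 in CON. For replication genes that median range was 1.56 in ZXD, 0.75 in HFD and 1.02 in CON. Over all tested genes it was 0.78 in ZXD, 0.82 in HFD and 0.71 in CON.

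ZXD versus CON gave most of the calls, all of them upward. A gene was called where edgeR's quasi-likelihood test gave a Benjamini-Hochberg adjusted p under 0.05 over all 13163 genes. Of 12 replication genes 8 rose and 0 fell, and of 25 tested mitosis genes 14 rose and 0 fell, while 17.9% of all tested genes rose and 14.8% fell. Some genes low in CON passed the filter only with the HFD libraries in the fit. Among them, Rrm2 had at most 4 counts and Aurkb at most 5 in any CON library, so a fall could hardly be called. For such genes the absence of a fall says little. The median log2 fold change was 1.11 for replication genes and 2.10 for mitosis genes, against 0.03 over all tested genes. Every ZXD library exceeded every CON library for 2 of the 37 tested genes, Tyms and Kif11, against 8.20% of all tested genes. The mitosis count depended on single libraries: 4 genes were called without ZXD 4, 8 without ZXD 5, 5 without CON 3, 8 without CON 4 and 5 without CON 5, and the replication count was 5 without ZXD 4. By limma voom 3 replication genes, Mcm2, Rrm1 and Tyms, and 1 mitosis gene, Kif11, were called. With the HFD libraries left out of the fit, 22 of the 37 genes passed the filter, and 9 were called. They were the replication genes Mcm2, Mcm3, Mcm5, Mcm6, Rrm1 and Tyms and 3 mitosis genes, Kif11, Mki67 and Top2a. With library totals as the scale 22 mitosis genes were called. DESeq2 called 27 genes, all 22 that edgeR called and also Pcna, Ccnb1, Cdk1, Cdca8 and Cenpe. Beyond the 22, edgeR also called Pcna, Ccnb1, Cdca8, Cenpe and Foxm1 without ZXD 1, and Pcna, Ccnb1, Cdca8, Cenpe, Cdk1, Racgap1 and Bub1b without ZXD 2. Cdca8 was also called without CON 1, and Ccnb1 without HFD 1, HFD 3, HFD 4 or HFD 5.

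HFD versus CON moved few of these genes past the threshold. Of 12 replication genes 0 rose and 0 fell by edgeR. At an unadjusted p under 0.05, 2 of them, Mcm2 and Mcm3, were higher, against 19.1% of all tested genes. DESeq2 called 1 replication gene and limma voom 0. Of 25 tested mitosis genes 2 rose, Kif11 and Mybl2, and 0 fell, while 10.0% of all tested genes rose and 10.9% fell. The median log2 fold change was 0.34 for replication genes and 0.68 for mitosis genes, against 0.02 over all tested genes. Every HFD library exceeded every CON library for Mcm2, Mcm3 and Kif11, 3 of the 37 tested genes, against 6.59% of all tested genes. With library totals as the scale 4 replication genes were called. With the ZXD libraries left out of the fit, 22 of the genes passed the filter, Mybl2 not among them, and Mcm2, Mcm3 and Kif11 were called.

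ZXD versus HFD gave no call for these genes or for any other. By edgeR 0 of 37 genes were called in either direction, as were 0% of all tested genes upward and 0% downward, and the smallest adjusted p over all genes was 0.110. At an unadjusted p under 0.05, 7 of 12 replication genes and 8 of 25 mitosis genes were higher in ZXD and 0 were lower, against 9.84% of all tested genes higher. DESeq2 called 1 replication gene, Rrm1, among 320 genes, and limma voom called 0. The median log2 fold change was 0.76 for replication genes and 1.43 for mitosis genes, against 0.02 over all tested genes. Every ZXD library exceeded every HFD library for 1 gene, Tyms, against 2.14% of all tested genes. Any pair of these comparisons shares the libraries of a group, so the 3 sets of values are not independent.

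**Figure D2:**
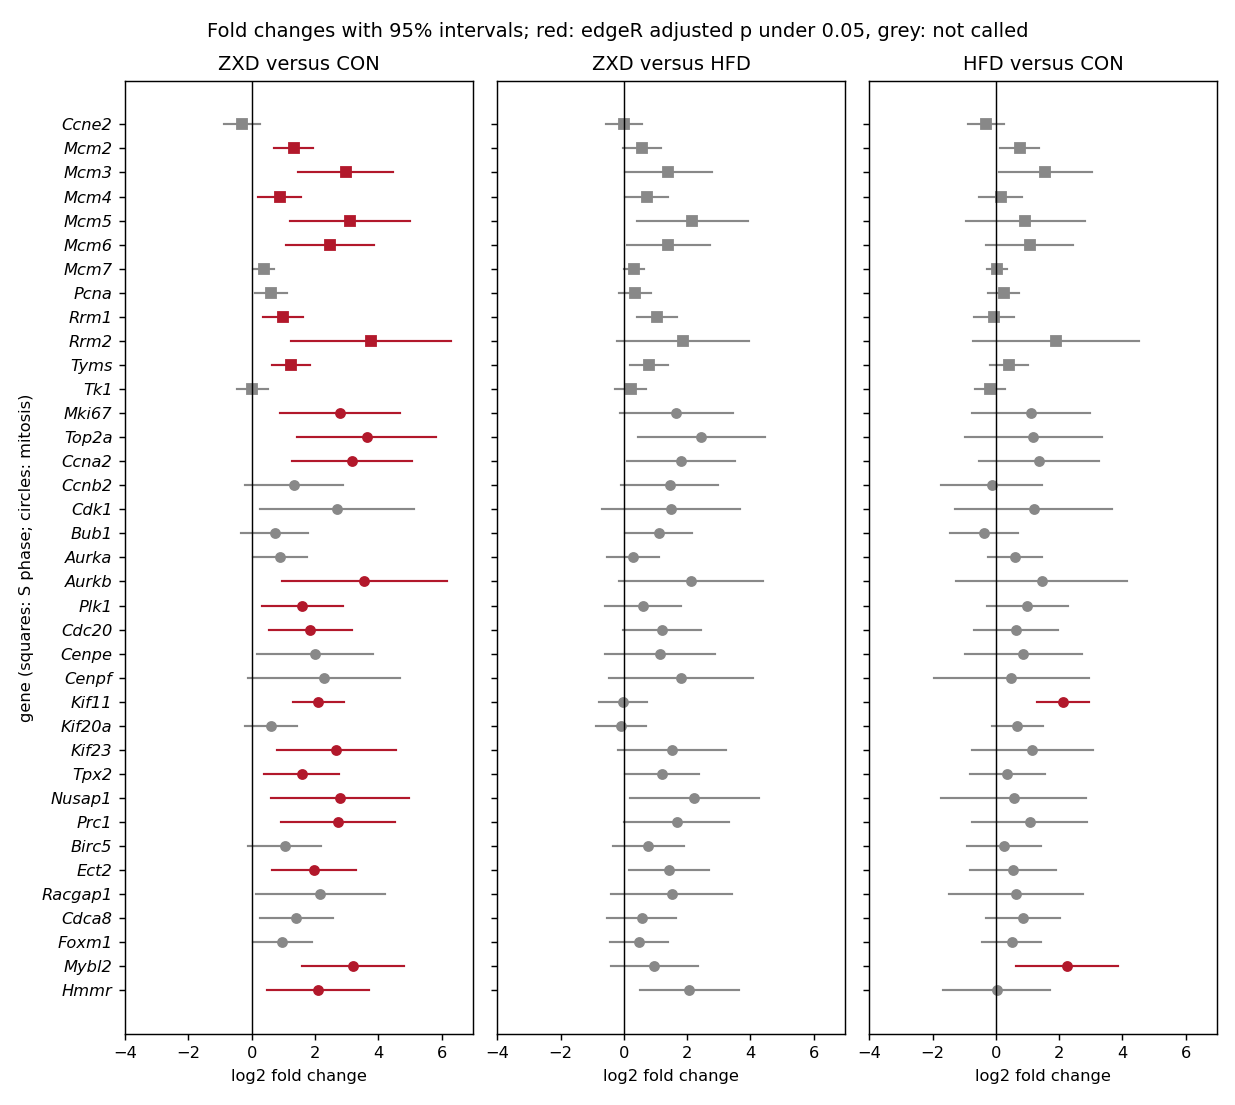
Log2 fold changes with 95% intervals for the 37 tested genes in ZXD versus CON, ZXD versus HFD and HFD versus CON, with squares for replication genes, circles for mitosis genes and red for genes called at an edgeR adjusted p under 0.05. Red points number 22 in ZXD versus CON, 0 in ZXD versus HFD and 2 in HFD versus CON, and intervals of mitosis genes are wide.

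Among the replication genes, subunits of the Mcm2 to Mcm7 helicase rose in ZXD versus CON, with 5 of 6 called. Mcm2 was at 7.29, 8.42, 14.7, 22.9 and 17.2 CPM in ZXD 1 to 5, 8.93, 11.2, 8.35, 8.59 and 10.4 CPM in HFD 1 to 5 and 7.90, 4.73, 3.80, 5.94 and 5.71 CPM in CON 1 to 5. All HFD libraries lay above all CON libraries, and among ZXD libraries ZXD 1 alone fell inside the CON range. Its log2 fold change was 1.33 (SE 0.28, adjusted p = 0.00409 by edgeR) in ZXD versus CON, 0.76 (SE 0.28, adjusted p = 0.0682 by edgeR) in HFD versus CON and 0.57 (SE 0.28, adjusted p = 0.317 by edgeR) in ZXD versus HFD. Mcm3 read 1.38, 2.34, 13.8, 24.1 and 13.7 CPM in ZXD 1 to 5, 2.98, 5.72, 2.36, 1.91 and 7.93 CPM in HFD 1 to 5 and 1.79, 1.87, 0.855, 1.68 and 0.852 CPM in CON 1 to 5. Every HFD library was again above every CON library, whereas ZXD 1 lay inside the CON range. The log2 fold change of Mcm3 was 2.96 (SE 0.69, adjusted p = 0.00610 by edgeR) in ZXD versus CON and 1.56 (SE 0.68, adjusted p = 0.108 by edgeR) in HFD versus CON.

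Mcm5 measured 0.550, 0.624, 9.01, 13.8 and 11.6 CPM in ZXD 1 to 5, 1.81, 2.23, 1.33, 0.409 and 2.10 CPM in HFD 1 to 5 and 1.44, 0.624, 0.475, 1.51 and 0.0852 CPM in CON 1 to 5. Mcm6 measured 2.13, 2.26, 8.60, 16.9 and 12.2 CPM in ZXD 1 to 5, 3.04, 5.58, 1.70, 2.18 and 3.39 CPM in HFD 1 to 5 and 3.05, 0.535, 1.43, 2.13 and 0.426 CPM in CON 1 to 5. For both subunits ZXD 3, 4 and 5 stood above all other libraries, and ZXD 1 and 2 lay inside the CON range. Log2 fold changes in ZXD versus CON were 3.10 (SE 0.87, adjusted p = 0.0152 by edgeR) for Mcm5 and 2.48 (SE 0.64, adjusted p = 0.0103 by edgeR) for Mcm6. Mcm4 had 8.12, 7.95, 14.5, 22.5 and 14.1 CPM in ZXD 1 to 5, 6.99, 9.07, 7.16, 8.04 and 9.56 CPM in HFD 1 to 5 and 11.8, 3.83, 5.795, 9.22 and 5.96 CPM in CON 1 to 5. CON 1 lay above ZXD 1 and 2, and the log2 fold change of Mcm4 in ZXD versus CON was 0.88 (SE 0.31, adjusted p = 0.0424 by edgeR). The Mcm4 call was lost without any one of CON 2, CON 3, CON 5, HFD 2, HFD 3, ZXD 3, ZXD 4 and ZXD 5, its edgeR adjusted p reaching 0.141. Mcm7, the most abundant subunit, ranged over 14.1 to 21.5 CPM in ZXD, 11.4 to 15.1 CPM in HFD and 10.7 to 15.3 CPM in CON. In ZXD versus CON it missed the threshold, with a log2 difference of 0.37 (SE 0.15, adjusted p = 0.0643 by edgeR) and a 95% interval of 0.05 to 0.69.

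The genes of nucleotide supply divided into 3 that rose in ZXD versus CON and 1 that did not pass. Rrm1 was at 11.8, 12.3, 25.4, 38.2 and 21.8 CPM in ZXD 1 to 5, 12.7, 11.3, 8.42, 9.20 and 11.2 CPM in HFD 1 to 5 and 16.4, 9.54, 8.93, 11.0 and 9.37 CPM in CON 1 to 5. ZXD 3, 4 and 5 exceeded all HFD and CON libraries, while CON and HFD overlapped. For Rrm1 the log2 fold change was 0.99 (SE 0.29, adjusted p = 0.0178 by edgeR) in ZXD versus CON and 1.05 (SE 0.29, adjusted p = 0.155 by edgeR) in ZXD versus HFD, and the call in ZXD versus CON was lost without ZXD 4 (edgeR adjusted p = 0.0581). Tyms, thymidylate synthase, was at 8.88, 8.498, 9.64, 11.3 and 8.84 CPM in ZXD 1 to 5, 6.99, 5.58, 4.58, 6.88 and 3.12 CPM in HFD 1 to 5 and 6.37, 2.32, 2.66, 4.79 and 4.00 CPM in CON 1 to 5. All ZXD libraries, ZXD 1 and 2 included, lay above all HFD and all CON libraries, and their values were close together. Its log2 fold change was 1.23 (SE 0.28, adjusted p = 0.00513 by edgeR) in ZXD versus CON and 0.79 (SE 0.27, adjusted p = 0.196 by edgeR) in ZXD versus HFD.

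Rrm2 was at 0.344, 0, 2.66, 4.58 and 2.68 CPM in ZXD 1 to 5, 0.906, 0.628, 0.0739, 0.136 and 1.02 CPM in HFD 1 to 5 and 0.359, 0.357, 0, 0 and 0 CPM in CON 1 to 5. It had 155 counts over the ZXD libraries, 41 over the HFD libraries and 8 over the CON libraries, with 3 CON libraries and ZXD 2 at 0. Rrm2 had a log2 fold change in ZXD versus CON of 3.76 (SE 1.15, adjusted p = 0.0224 by edgeR), and its call was lost without ZXD 4, CON 3, CON 4 or CON 5, its edgeR adjusted p reaching 0.0596. Tk1 ranged over 6.67 to 14.95 CPM in ZXD, 7.63 to 13.1 CPM in HFD and 9.24 to 15.9 CPM in CON, and its log2 fold change in ZXD versus CON had a 95% interval of -0.46 to 0.50.

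The 2 remaining replication genes did not pass in any comparison by edgeR with all libraries and TMM scaling. Pcna ranged over 11.4 to 31.8 CPM in ZXD, 12.8 to 15.6 CPM in HFD and 8.65 to 14.4 CPM in CON, with a log2 fold change of 0.60 (SE 0.23, adjusted p = 0.0565 by edgeR) in ZXD versus CON. DESeq2 called Pcna in that comparison with an adjusted p of 0.0488. Its high value in ZXD, as for most genes here, was that of ZXD 4. Ccne2, cyclin E2, which starts S phase together with Cdk2, ranged over 2.96 to 7.38 CPM in ZXD, 3.49 to 5.90 CPM in HFD and 3.59 to 6.37 CPM in CON. Its log2 fold change was -0.31 (SE 0.27, adjusted p = 0.392 by edgeR) in ZXD versus CON and -0.31 (SE 0.27, adjusted p = 0.408 by edgeR) in HFD versus CON. Scaled by library totals, the values were 0.15 in ZXD versus CON and 0.11 in HFD versus CON.

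**Figure D3:**
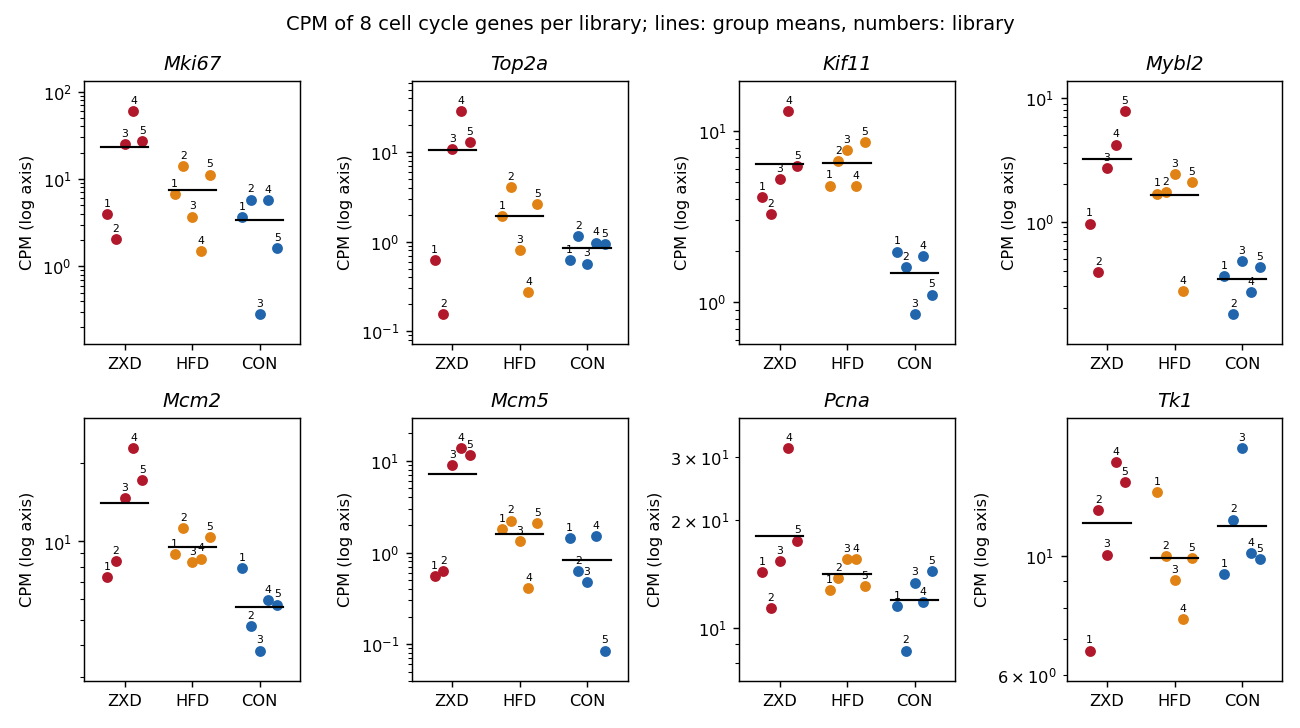
CPM per library on a log axis for 4 mitosis genes (Mki67, Top2a, Kif11, Mybl2) and 4 replication genes (Mcm2, Mcm5, Pcna, Tk1), with ZXD, HFD and CON from left to right, a line at each group mean and the library number above each point. Mki67, Top2a and Mcm5 separate ZXD 3, 4 and 5 from ZXD 1 and 2, whereas Kif11 is above 3 CPM in every ZXD and HFD library and below 2 CPM in every CON library.

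Of the mitosis genes, the general markers of dividing cells rose in ZXD versus CON. Mki67, which coats mitotic chromosomes and is the standard marker of cycling cells, was at 3.92, 2.03, 24.9, 59.2 and 26.9 CPM in ZXD 1 to 5, 6.67, 13.9, 3.69, 1.4996 and 11.2 CPM in HFD 1 to 5 and 3.68, 5.797, 0.285, 5.68 and 1.62 CPM in CON 1 to 5. Top2a, the topoisomerase that untangles sister chromatids, was at 0.619, 0.156, 10.8, 28.7 and 13.1 CPM in ZXD 1 to 5, 1.94, 4.05, 0.812, 0.273 and 2.64 CPM in HFD 1 to 5 and 0.628, 1.16, 0.570, 0.975 and 0.937 CPM in CON 1 to 5. Both genes were high in ZXD 3, 4 and 5, and ZXD 2 had less Top2a than any HFD or CON library. The log2 fold change in ZXD versus CON was 2.77 (SE 0.87, adjusted p = 0.0253 by edgeR) for Mki67, whose call was lost without ZXD 4, CON 3 or CON 5, its edgeR adjusted p reaching 0.0866. Top2a changed by 3.63 (SE 1.01, adjusted p = 0.0147 by edgeR) in ZXD versus CON. In ZXD versus HFD the log2 fold change of Top2a was 2.45 (SE 0.93, adjusted p = 0.217 by edgeR), the largest of the 37 genes in that comparison.

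Among the cyclins and Cdk1, which drive entry into mitosis, Ccna2 alone was called by edgeR after the filter. Ccna2, cyclin A2, read 0.206, 0.624, 3.98, 9.95 and 4.78 CPM in ZXD 1 to 5, 0.712, 2.58, 0.665, 0.341 and 1.29 CPM in HFD 1 to 5 and 0.808, 0.446, 0.190, 0.532 and 0.170 CPM in CON 1 to 5. ZXD 1 had less than CON 1, CON 2 and CON 4, so the groups overlap, and the log2 fold change in ZXD versus CON was 3.16 (SE 0.87, adjusted p = 0.0137 by edgeR). Cdk1 ranged over 0.0780 to 5.798 CPM in ZXD, 0 to 1.61 CPM in HFD and 0.0852 to 0.713 CPM in CON. It had 162 counts in ZXD, 55 in HFD and 18 in CON, and its log2 fold change of 2.69 (SE 1.11, adjusted p = 0.0760 by edgeR) in ZXD versus CON did not pass. By DESeq2 the adjusted p of Cdk1 was 0.0465, under the threshold. Ccnb2, cyclin B2, ranged over 0.206 to 4.88 CPM in ZXD, 0.194 to 1.42 CPM in HFD and 0.443 to 1.19 CPM in CON and did not pass either, at 1.33 (SE 0.71, adjusted p = 0.163 by edgeR). Ccnb1, cyclin B1, which the filter removed, was at 0.0688, 0.0780, 2.80, 5.13 and 1.96 CPM in ZXD 1 to 5, 0.647, 1.40, 0.148, 0.545 and 0.542 CPM in HFD 1 to 5 and 0.269, 0.268, 0.285, 0.177 and 0.511 CPM in CON 1 to 5. Like Ccna2, it had ZXD 3, 4 and 5 above all other libraries, and both DESeq2 and the edgeR fit with no filter called it higher in ZXD versus CON.

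Of the mitotic kinases and the checkpoint genes, edgeR called Aurkb, Plk1 and Cdc20 higher in ZXD versus CON. Aurkb, the kinase of the chromosomal passenger complex, was at 0.0688, 0.156, 1.75, 7.75 and 3.33 CPM in ZXD 1 to 5, 0.647, 0.907, 0.148, 0 and 1.29 CPM in HFD 1 to 5 and 0.269, 0.446, 0, 0.355 and 0 CPM in CON 1 to 5. Over the libraries of a group Aurkb had 201 counts in ZXD, 44 in HFD and 12 in CON, and the log2 fold change in ZXD versus CON was 3.56 (SE 1.19, adjusted p = 0.0340 by edgeR). Plk1, which promotes entry into and exit from mitosis, was at 0.895, 0.624, 2.66, 3.84 and 1.45 CPM in ZXD 1 to 5, 0.971, 0.838, 0.960, 1.16 and 2.30 CPM in HFD 1 to 5 and 0.808, 1.25, 0.0950, 0.532 and 0.426 CPM in CON 1 to 5. Cdc20, the activator of the anaphase promoting complex, was at 0.413, 1.09, 1.89, 4.39 and 2.61 CPM in ZXD 1 to 5, 1.04, 0.977, 0.443, 0.273 and 1.76 CPM in HFD 1 to 5 and 0.718, 0.713, 0.475, 0.266 and 0.681 CPM in CON 1 to 5. In all 3 genes ZXD 1 or ZXD 2 lay inside the CON range. The log2 fold change in ZXD versus CON was 1.60 (SE 0.58, adjusted p = 0.0473 by edgeR) for Plk1 and 1.85 (SE 0.60, adjusted p = 0.0288 by edgeR) for Cdc20.

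These 3 calls rested on several libraries. Aurkb lost its call without ZXD 4, ZXD 5 or any one CON library, its edgeR adjusted p reaching 0.116. Cdc20 lost it without ZXD 4, ZXD 5, CON 3, CON 4 or CON 5, its edgeR adjusted p reaching 0.0997. Plk1 kept it in 4 of 15 fits that each left out 1 library, namely those without CON 2, HFD 5, ZXD 1 or ZXD 2, and its edgeR adjusted p reached 0.155. Aurka and the passenger complex genes Birc5 and Cdca8 did not pass in any comparison by edgeR with all libraries and TMM scaling. Aurka ranged over 3.17 to 8.91 CPM in ZXD, 1.91 to 6.64 CPM in HFD and 1.81 to 3.83 CPM in CON, with a log2 fold change in ZXD versus CON of 0.89 (SE 0.39, adjusted p = 0.0916 by edgeR). Birc5 ranged over 0.688 to 3.84 CPM in ZXD, 0.222 to 2.10 CPM in HFD and 0.475 to 1.35 CPM in CON, with 1.04 (SE 0.53, adjusted p = 0.149 by edgeR). Cdca8 ranged over 0.468 to 1.96 CPM in ZXD, 0.443 to 1.29 CPM in HFD and 0.0892 to 0.808 CPM in CON, with 1.41 (SE 0.53, adjusted p = 0.0536 by edgeR). DESeq2 called Cdca8 in ZXD versus CON with an adjusted p of 0.0359. Each of the 3 was highest in ZXD 3 or ZXD 4, and the groups overlapped. Bub1, a checkpoint kinase, ranged over 1.51 to 12.6 CPM in ZXD, 1.75 to 3.21 CPM in HFD and 1.62 to 4.08 CPM in CON and did not pass, at 0.73 (SE 0.49, adjusted p = 0.268 by edgeR). Bub1b, its checkpoint partner, which the filter removed, ranged over 0 to 5.25 CPM in ZXD, 0.194 to 0.768 CPM in HFD and 0 to 0.803 CPM in CON, with its 3 highest values in ZXD 4, 5 and 3.

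Kif11, the kinesin that pushes the spindle poles apart, rose by similar amounts in both comparisons with CON. It was at 4.13, 3.27, 5.24, 13 and 6.23 CPM in ZXD 1 to 5, 4.79, 6.63, 7.75, 4.77 and 8.61 CPM in HFD 1 to 5 and 1.97, 1.61, 0.855, 1.86 and 1.11 CPM in CON 1 to 5. Every ZXD library, ZXD 1 and 2 included, and every HFD library exceeded every CON library. The log2 fold change was 2.10 (SE 0.37, adjusted p = 0.00149 by edgeR) in ZXD versus CON and 2.13 (SE 0.37, adjusted p = 0.00159 by edgeR) in HFD versus CON, and both calls held in each of 15 fits that left out 1 library. ZXD versus HFD gave -0.03 (SE 0.34, adjusted p = 0.976 by edgeR) with a 95% interval of -0.78 to 0.72.

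Kif20a, a kinesin of cytokinesis, also had its lowest ZXD values in ZXD 1 and 2, with 2.82, 2.88, 4.54, 8.48 and 4.57 CPM in ZXD 1 to 5, 3.37, 4.12, 6.43, 3.89 and 6.85 CPM in HFD 1 to 5 and 3.68, 1.69, 3.33, 1.68 and 4.94 CPM in CON 1 to 5. With TMM scaling it did not pass by edgeR in any comparison, at 0.61 (SE 0.37, adjusted p = 0.226 by edgeR) in ZXD versus CON and 0.68 (SE 0.37, adjusted p = 0.194 by edgeR) in HFD versus CON. Its log2 fold change in ZXD versus HFD was -0.08 with a 95% interval of -0.87 to 0.72. The kinetochore genes Cenpe and Cenpf were highest in ZXD 4 and did not pass in any comparison by edgeR with all libraries and TMM scaling. Cenpe ranged over 0.138 to 8.73 CPM in ZXD, 0.369 to 3.14 CPM in HFD and 0.443 to 1.78 CPM in CON, with a log2 fold change in ZXD versus CON of 2.00 (SE 0.84, adjusted p = 0.0797 by edgeR). DESeq2 called Cenpe in ZXD versus CON with an adjusted p of 0.0408. Cenpf ranged over 0.138 to 7.38 CPM in ZXD, 0 to 1.88 CPM in HFD and 0 to 1.34 CPM in CON, with 2.28 (SE 1.10, adjusted p = 0.124 by edgeR).

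The spindle assembly genes Tpx2, Nusap1 and Hmmr rose in ZXD versus CON. Tpx2, which nucleates spindle microtubules and activates Aurka, was at 1.17, 2.42, 6.29, 10.3 and 7.83 CPM in ZXD 1 to 5, 2.20, 3.001, 1.55, 1.16 and 4.20 CPM in HFD 1 to 5 and 1.53, 2.76, 1.24, 3.01 and 0.852 CPM in CON 1 to 5. Nusap1, which stabilises spindle microtubules, was at 0.619, 0.0780, 1.82, 5.61 and 2.54 CPM in ZXD 1 to 5, 0.453, 1.05, 0.0739, 0 and 0.678 CPM in HFD 1 to 5 and 0.0897, 0.892, 0.0950, 0.355 and 0.0852 CPM in CON 1 to 5. Hmmr, a spindle assembly factor that is also a hyaluronan receptor, was at 0.619, 0.234, 1.96, 6.16 and 2.17 CPM in ZXD 1 to 5, 0.388, 0.907, 0.665, 0.273 and 0.407 CPM in HFD 1 to 5 and 1.17, 0.357, 0.0950, 0.621 and 0.341 CPM in CON 1 to 5. In each of the 3 genes, ZXD 3, 4 and 5 were the highest libraries, and neither ZXD 1 nor ZXD 2 exceeded the highest CON library. Log2 fold changes in ZXD versus CON were 1.57 (SE 0.54, adjusted p = 0.0381 by edgeR) for Tpx2, 2.78 (SE 1.002, adjusted p = 0.0448 by edgeR) for Nusap1 and 2.10 (SE 0.74, adjusted p = 0.0408 by edgeR) for Hmmr. The Tpx2 call was lost without CON 1, CON 3, CON 5, ZXD 3, ZXD 4 or ZXD 5 (edgeR adjusted p up to 0.113), and the Hmmr call without CON 2, CON 3, CON 4, CON 5, ZXD 3, ZXD 4 or ZXD 5 (edgeR adjusted p up to 0.187). Nusap1 lost its call without CON 1, CON 3, CON 4, CON 5, HFD 1, HFD 5, ZXD 3, ZXD 4 or ZXD 5 (edgeR adjusted p up to 0.148). In HFD versus CON the log2 fold changes were 0.37 for Tpx2, 0.56 for Nusap1 and 0.02 for Hmmr, and none of the 3 passed.

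Genes of cytokinesis followed the same libraries. Prc1, which bundles the microtubules between the separating chromosomes, was at 0.344, 0.624, 4.96, 9.52 and 3.70 CPM in ZXD 1 to 5, 0.971, 1.88, 1.18, 0.409 and 1.56 CPM in HFD 1 to 5 and 0.987, 0.713, 0, 0.709 and 0.426 CPM in CON 1 to 5. Kif23, the kinesin of the centralspindlin complex, was at 0.619, 0.0780, 2.45, 7.20 and 2.32 CPM in ZXD 1 to 5, 0.324, 1.95, 0.295, 0.613 and 1.22 CPM in HFD 1 to 5 and 0.449, 0.446, 0.190, 0.709 and 0.170 CPM in CON 1 to 5. Ect2, which activates RhoA at the cleavage furrow, was at 0.482, 0.546, 1.40, 5.43 and 1.96 CPM in ZXD 1 to 5, 0.647, 0.489, 0.739, 0.682 and 1.08 CPM in HFD 1 to 5 and 0.449, 0.535, 0.285, 0.355 and 0.852 CPM in CON 1 to 5. All 3 were highest in ZXD 4 and overlapped with CON through ZXD 1 and 2. Their log2 fold changes in ZXD versus CON were 2.74 (SE 0.83, adjusted p = 0.0209 by edgeR) for Prc1, 2.67 (SE 0.86, adjusted p = 0.0284 by edgeR) for Kif23 and 1.97 (SE 0.61, adjusted p = 0.0224 by edgeR) for Ect2. The partner of Kif23, Racgap1, ranged over 0.0780 to 4.70 CPM in ZXD, 0 to 1.69 CPM in HFD and 0.177 to 0.628 CPM in CON and missed the threshold with 2.16 (SE 0.94, adjusted p = 0.0886 by edgeR). The Prc1 call was lost without ZXD 4 or CON 5 (edgeR adjusted p up to 0.0718), the Kif23 call without ZXD 4, CON 2, CON 3 or CON 5 (edgeR adjusted p up to 0.117), and the Ect2 call without ZXD 4, CON 3 or CON 4 (edgeR adjusted p up to 0.108).

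Of the 2 transcription factors, Mybl2 rose in both comparisons with CON and Foxm1 did not pass. Mybl2, a Myb protein active from S phase to mitosis, was at 0.963, 0.390, 2.73, 4.21 and 7.83 CPM in ZXD 1 to 5, 1.68, 1.74, 2.44, 0.273 and 2.10 CPM in HFD 1 to 5 and 0.359, 0.178, 0.475, 0.266 and 0.426 CPM in CON 1 to 5. ZXD 2 and HFD 4 lay inside the CON range, and ZXD 5 was the highest library. Mybl2 had 235 counts over the ZXD libraries, 119 over the HFD libraries and 19 over the CON libraries. The log2 fold change was 3.21 (SE 0.74, adjusted p = 0.00574 by edgeR) in ZXD versus CON, 2.24 (SE 0.74, adjusted p = 0.0434 by edgeR) in HFD versus CON and 0.97 (SE 0.63, adjusted p = 0.440 by edgeR) in ZXD versus HFD. The call in HFD versus CON was lost without any one of the 5 CON libraries, HFD 1, HFD 2, HFD 3, HFD 5 or ZXD 3, its edgeR adjusted p reaching 0.0866. Foxm1, a forkhead factor of G2 and mitosis genes, ranged over 1.17 to 5.86 CPM in ZXD, 1.97 to 3.07 CPM in HFD and 0.713 to 2.78 CPM in CON, and its log2 fold change in ZXD versus CON was 0.97 (SE 0.43, adjusted p = 0.0926 by edgeR).

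In ZXD versus HFD the replication genes with an unadjusted p under 0.05 were Mcm3, Mcm4, Mcm5, Mcm6, Mcm7, Rrm1 and Tyms, and the mitosis genes were Top2a, Ccna2, Bub1, Tpx2, Nusap1, Prc1, Ect2 and Hmmr. The log2 fold changes of these genes lay between 0.33 for Mcm7 and 2.45 for Top2a. Their smallest edgeR adjusted p was 0.155, for Rrm1, so none of them passed over all genes. Mki67 averaged 23.4 ± 23.1 CPM in ZXD and 7.39 ± 5.14 CPM in HFD (SD, n = 5 each), a log2 fold change of 1.66 (SE 0.82, adjusted p = 0.326 by edgeR) with a 95% interval of -0.12 to 3.45. The SD of Mki67 in ZXD was about as large as its mean, and HFD 2 and HFD 5 both lay above ZXD 1 and ZXD 2.

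Other genes of these processes were taken from lists of the same pathways. Genes low in CON, such as Cdc6 with at most 0.446 CPM, could pass the filter through ZXD and HFD libraries. For them, too, a fall against CON could hardly be called. Of 37 other tested replication genes reported here edgeR called 8 higher and 0 lower in ZXD versus CON, with 1 lower at an unadjusted p under 0.05 and a median log2 fold change of 0.59. Over all tested genes 17.9% were called higher and 14.8% lower, and 2592 of 13163 were lower at an unadjusted p under 0.05. The genes with the smallest adjusted p were Lig1, the ligase that joins replicated fragments, at 1.64 (SE 0.32, edgeR adjusted p = 0.00248), Orc3, of the origin recognition complex, at 0.77 (SE 0.16, edgeR adjusted p = 0.00321), Cdc6, which loads the Mcm ring, at 3.04 (SE 0.69, edgeR adjusted p = 0.00530), and Pola1, the catalytic subunit of polymerase alpha, at 1.26 (SE 0.30, edgeR adjusted p = 0.00716). In HFD versus CON 2 of these 37 rose, Lig1 at 1.01 (SE 0.32, edgeR adjusted p = 0.0359) and Orc3 at 0.47 (SE 0.16, edgeR adjusted p = 0.0456). In that comparison 1 fell, Mcm10, a replication initiation factor, at -1.04 (SE 0.24, edgeR adjusted p = 0.00896), while 10.0% of all tested genes rose and 10.9% fell. EdgeR called 0 of the 37 in ZXD versus HFD. At an unadjusted p under 0.05, 4 were higher and 0 lower, against 9.84% of all tested genes higher. The smallest p-values belonged to Pola1, at 1.05 (SE 0.30, edgeR adjusted p = 0.155), and Cdc6, at 1.41 (SE 0.59, edgeR adjusted p = 0.248).

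Of 57 other mitosis genes found, the filter kept 39. Of these 39 tested genes 17 rose and 3 fell in ZXD versus CON, with a median log2 fold change of 1.11, while 17.9% of all tested genes rose and 14.8% fell. Some of the 39 were low in CON, such as Knl1 with at most 0.803 CPM and Dlgap5 with at most 0.628 CPM in any CON library. A fall of such genes could hardly be called, so its absence says little. Gtse1, a microtubule-associated protein of G2, was at 2.53 (SE 0.51, edgeR adjusted p = 0.00309), Zwint, a kinetochore protein, at 0.73 (SE 0.16, edgeR adjusted p = 0.00403), Knl1, a kinetochore scaffold, at 2.97 (SE 0.73, edgeR adjusted p = 0.00765) and Dlgap5, a spindle protein, at 2.45 (SE 0.60, edgeR adjusted p = 0.00774). The 3 that fell, named after their values were seen, were the spindle protein Spag5, at -1.25 (SE 0.31, edgeR adjusted p = 0.00842), the ubiquitin-conjugating enzyme Ube2s, at -0.42 (SE 0.15, edgeR adjusted p = 0.0417), and Wee1, the kinase that holds Cdk1 inactive, at -0.66 (SE 0.23, edgeR adjusted p = 0.0381). In HFD versus CON 2 rose, Zwint at 0.96 (SE 0.16, edgeR adjusted p = 0.000921) and Gtse1 at 2.41 (SE 0.51, edgeR adjusted p = 0.00529), and 1 fell, Wee1, at -1.02 (SE 0.23, edgeR adjusted p = 0.00750), against 10.0% and 10.9% of all tested genes that rose and fell. In ZXD versus HFD edgeR called 0 of the 39. At an unadjusted p under 0.05, 9 were higher and 0 lower, against 9.84% of all tested genes higher. The smallest p-values belonged to Smc4, of condensin, at 0.81 (SE 0.22, edgeR adjusted p = 0.155), and Kif20b, a kinesin, at 1.48 (SE 0.51, edgeR adjusted p = 0.201).

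Genes that control the step from G1 to S phase were also counted. Of 28 tested genes 4 rose and 0 fell in ZXD versus CON, against 17.9% of all tested genes that rose. They were Cdk4, the cyclin D partner, at 0.34 (SE 0.08, edgeR adjusted p = 0.00725), E2f2, an activating E2F factor, at 1.44 (SE 0.44, edgeR adjusted p = 0.0218), Rbl1, a pocket protein that binds E2F factors, at 1.69 (SE 0.56, edgeR adjusted p = 0.0319), and Ccnd2, cyclin D2, at 1.68 (SE 0.58, edgeR adjusted p = 0.0387). The median log2 fold change of the 28 genes was 0.04, near the 0.03 of all tested genes. In HFD versus CON Cdk4 alone was called, at 0.34 (SE 0.08, edgeR adjusted p = 0.0112). For ZXD versus HFD the count called by edgeR was 0 of 28. At an unadjusted p under 0.05, 3 were higher and 0 lower, against 9.84% of all tested genes higher. The smallest p-values belonged to Ccnd2, at 1.64 (SE 0.58, edgeR adjusted p = 0.206), and Rbl1, at 1.35 (SE 0.55, edgeR adjusted p = 0.242).

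Inhibitors of the cycle and growth arrest genes were counted in the same way. Of 19 tested genes 5 rose and 1 fell in ZXD versus CON, while 17.9% of all tested genes rose and 14.8% fell. In HFD versus CON 3 of them rose and 1 fell, while 10.0% of all tested genes rose and 10.9% fell. In ZXD versus CON the leading genes were Ccng1, cyclin G1, at 0.97 (SE 0.18, edgeR adjusted p = 0.00220), Gadd45b, a stress-induced inhibitor, at 2.33 (SE 0.56, edgeR adjusted p = 0.00723), Ccng2, cyclin G2, at 0.75 (SE 0.19, edgeR adjusted p = 0.00867), and Sesn2, a stress-response gene, at -0.83 (SE 0.21, edgeR adjusted p = 0.00988). Those of HFD versus CON were Sesn2 at -0.95 (SE 0.21, edgeR adjusted p = 0.00714), Ccng1 at 0.76 (SE 0.18, edgeR adjusted p = 0.0102), Gadd45b at 2.14 (SE 0.56, edgeR adjusted p = 0.0161) and Cdkn1a, an inhibitor of cyclin-dependent kinases, at 1.46 (SE 0.45, edgeR adjusted p = 0.0337). In ZXD versus HFD edgeR called 0 of 19, with 1 higher and 1 lower at an unadjusted p under 0.05. Over all 13163 tested genes, 1295 were higher and 872 lower at that limit. The smallest p-values belonged to Gadd45a, at -1.03 (SE 0.41, edgeR adjusted p = 0.241), and Ccng2, at 0.44 (SE 0.19, edgeR adjusted p = 0.269).

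**Figure D4:**
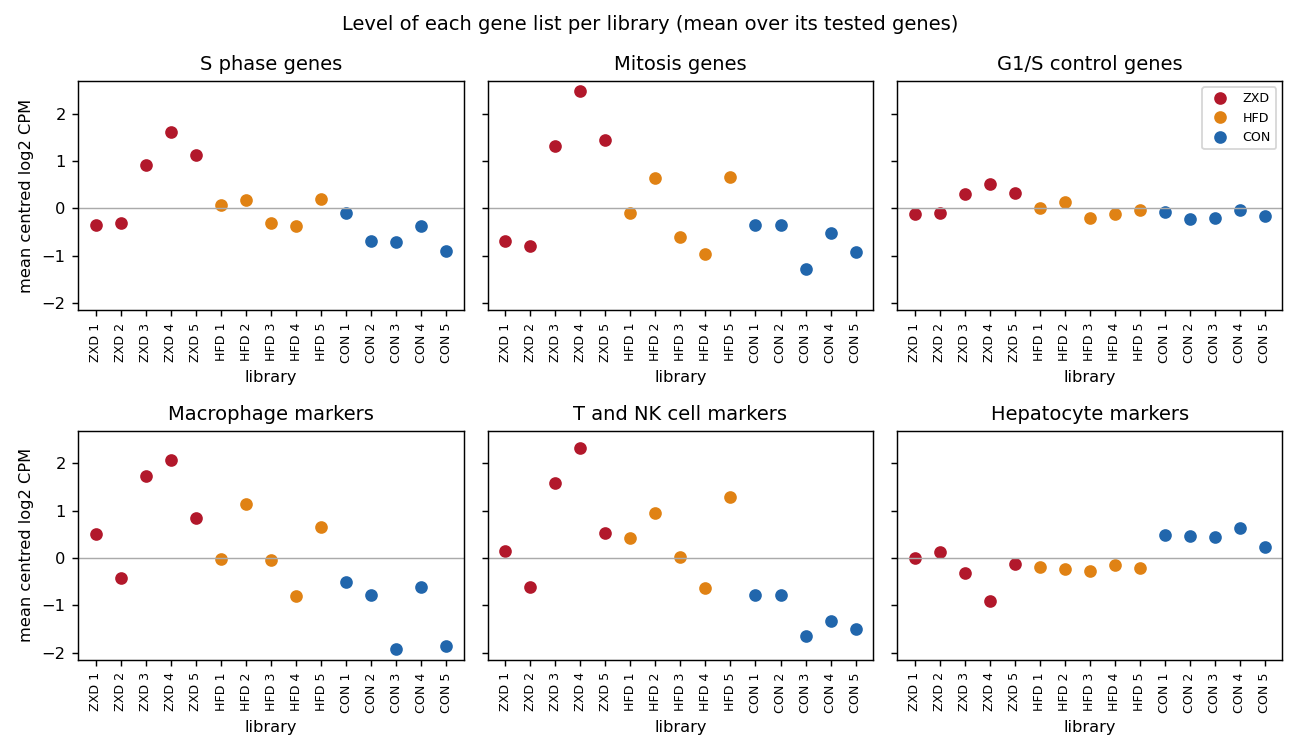
Mean centred log2 CPM of each gene list in each of the 15 libraries, with ZXD, HFD and CON from left to right. The replication and mitosis panels and the macrophage and T or NK cell panels all peak at ZXD 4, and the hepatocyte panel has its lowest point there.

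The summed markers of macrophages, T and NK cells, B and plasma cells and neutrophils were each highest in ZXD 4. Summed macrophage markers were 2526, 1232, 6830.5, 8794 and 3437 CPM in ZXD 1 to 5, 1541, 4541, 1985, 786 and 3378 CPM in HFD 1 to 5 and 1239, 871, 438, 1174 and 428 CPM in CON 1 to 5, with the highest sums in ZXD 4 and ZXD 3. HFD 2, with the highest macrophage sum of the HFD group, also had its highest mitosis sum. ZXD 5, with the second highest mitosis sum of all libraries, had a lower macrophage sum than HFD 2. Of 28 macrophage markers 24 rose and 0 fell in ZXD versus CON, and 10 rose and 0 fell in HFD versus CON. Over all tested genes, the share that rose was 17.9% in ZXD versus CON and 10.0% in HFD versus CON, and the counts of the other marker lists stand against the same shares. The filter kept 15 of 18 T and NK cell markers and 6 of 10 neutrophil markers. Markers low in CON could pass it through ZXD or HFD libraries alone, so these counts lean towards rises. Of 15 tested T and NK cell markers 14 rose in ZXD versus CON and 9 in HFD versus CON, with 0 lower in both, and the sums were 82.0, 44.9, 147, 199 and 80.4 CPM in ZXD 1 to 5, 58.0, 112, 53.7, 32.7 and 108 CPM in HFD 1 to 5 and 38.0, 32.0, 17.7, 39.5 and 15.8 CPM in CON 1 to 5. The T and NK cell sum of ZXD 5 lay below those of ZXD 1, HFD 2 and HFD 5. Gzmb, a granule protease of killer cells, was at 0 in all libraries. Of 7 tested B and plasma cell markers 5 rose in ZXD versus CON and 2 in HFD versus CON. Their sums were 17.2 to 55.2 CPM in ZXD, 14.0 to 29.8 CPM in HFD and 7.13 to 19.8 CPM in CON. As with the mitosis sum, ZXD 3, 4 and 5, at 43.6, 55.2 and 30.7 CPM, lay above all HFD and CON libraries. Unlike in the mitosis sum, ZXD 1, at 25.7 CPM, also lay above all CON libraries. Of 6 tested neutrophil markers 4 rose in ZXD versus CON and 3 in HFD versus CON, with sums of 71.5, 11.0, 502, 1894 and 85.0 CPM in ZXD 1 to 5, 92.8, 824, 177, 15.5 and 1625 CPM in HFD 1 to 5 and 7.09, 21.3, 5.32, 4.97 and 5.11 CPM in CON 1 to 5, and Mpo, the neutrophil peroxidase, was at 0 in all libraries. ZXD 5 had a lower neutrophil sum than HFD 1, HFD 2, HFD 3 and HFD 5. The part of these cells in the levels of the replication and mitosis genes was not tested.

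The remaining marker lists, for cell types other than immune cells, gave the following counts, beside shares of all tested genes of 17.9% higher and 14.8% lower in ZXD versus CON and 10.0% higher and 10.9% lower in HFD versus CON. Of 12 hepatocyte markers 6 fell in ZXD versus CON and 4 in HFD versus CON, with 0 higher in both, and the lowest sum of all libraries was that of ZXD 4. Of 6 tested erythroid markers 0 rose and 1 fell in either comparison with CON, and ZXD 2, low for mitosis genes, had the highest erythroid sum, 709 CPM. Of 12 endothelial markers 5 rose in ZXD versus CON and 1 in HFD versus CON, with 0 lower in both. Endothelial sums were 537 to 698 CPM in ZXD, 159 to 445 CPM in HFD and 167 to 536 CPM in CON. Unlike in the mitosis sum, ZXD 1 and 2 also lay above all HFD and CON libraries, and ZXD 4 was the lowest ZXD library. Of 11 stellate cell and fibroblast markers 2 rose and 0 fell in ZXD versus CON, and 1 rose and 1 fell in HFD versus CON, with sums of 297 to 705 CPM in ZXD, 203 to 700.2 CPM in HFD and 270.0 to 497 CPM in CON. Of 10 cholangiocyte markers 2 rose in ZXD versus CON and 4 in HFD versus CON, with 0 lower in both and sums of 61.2 to 102 CPM in ZXD, 72.1 to 136 CPM in HFD and 40.8 to 60.2 CPM in CON. Their part in the result was not tested.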

How the data were processed

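Total RNA of rat liver was purified with Trizol and sequenced as Illumina libraries, per the labels. The authors deposited 1 table of read counts and FPKM values per gene and library, per the file headers. The tool edgeR appears in the submitters' processing notes without a role or version. Not given in the sources used here are the aligner, the read counter, strand use, genome build and annotation, so reads of overlapping or antisense genes may be mixed. The deposited FPKM values equalled count over gene length over total count for 100% of values within 0.01% and were not tested. A simvastatin group named in the labels was not analysed here.

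Deposited counts of 15 libraries were scaled with TMM and filtered with filterByExpr (minimum count 10, minimum total 15) in edgeR 4.0.16 under R 4.3.3. They entered 1 robust quasi-likelihood fit (glmQLFit, glmQLFTest) on the group alone, which leaves 12 residual degrees of freedom. Adjusted p-values are Benjamini-Hochberg values over all tested genes. Standard errors are the log2 fold change over the square root of F, and 95% intervals use a t distribution with 12 degrees of freedom. CPM uses the TMM-scaled library size. No libraries of a group agreed within sampling noise, with a chi-square of at least 18.3 per gene. The fit was also run on simulated counts, and the outcome is not given here. DESeq2 1.42.0, limma voom (limma 3.58.1), other scalings and filters, a replicate block, fits of 2 groups and leaving out each library were tried.

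The genes and lists were chosen with earlier results of these data known. Some genes of the other cell cycle lists are not reported here and were left out of their counts. Values per library are given for every called gene. Of each other cell cycle list, up to 4 called genes with the smallest adjusted p are named, or the 2 with the smallest p where none was called. Marker lists cover macrophages, T and NK cells, B and plasma cells, neutrophils, erythroid, endothelial, stellate, bile duct and hepatocyte genes.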

Additional observations from a re-analysis of the deposited data

Results flagged for a closer look

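Of 117 groups of 5 libraries, 3 held a library whose gap to its nearest neighbour exceeded Dixon's critical share of the group's range, 0.71, and chance alone gives about 1 in 20 groups. Gap and range were taken on the log2 CPM scale, while the values below are CPM. Ccne2, cyclin E2, was at 3.59 CPM in CON 1, against 5.71 to 6.37 CPM in the other CON libraries. Cenpe, the kinetochore motor, was at 1.78 CPM in CON 2, against 0.443 to 0.681 CPM in the other CON libraries. Mybl2 was at 0.273 CPM in HFD 4, against 1.68 to 2.44 CPM in the other HFD libraries. HFD 4 also had the lowest macrophage sum of its group, 786 CPM.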

How the results depend on the processing

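The count of replication genes higher in HFD versus CON was 0, and was 4 with library totals as the scale, 2 with 2 groups only, 1 by DESeq2 and 0 to 1 when each library was left out. The count of mitosis genes higher in HFD versus CON was 2, and was 1 with the replicate block, with 2 groups only and by limma voom, and 1 to 2 when each library was left out. In ZXD versus HFD DESeq2 called 1 replication gene, and leaving out a library gave 0. In ZXD versus CON 8 replication genes were higher, and 5 with the replicate block, 3 by limma voom and 5 to 9 with a library left out. The 14 mitosis genes higher in ZXD versus CON became 22 with library totals as the scale, 2 with the replicate block, 3 with 2 groups only, 1 by limma voom and 4 to 20 with a library left out. With 2 groups only, 22 of the genes passed the filter in ZXD versus CON, 22 in HFD versus CON and 35 in ZXD versus HFD. A gene that did not pass could not be called in that fit. Scaling by relative log expression and the fit with no filter moved no count by over 1.5 times, and 0 genes were called lower under every alternative tried. Apart from the filter, the cause of these shifts was not tested. Of the 22 genes called in ZXD versus CON, 9 kept the call in all 15 fits that left out 1 library, namely Mcm2, Mcm3, Mcm5, Mcm6, Tyms, Top2a, Ccna2, Kif11 and Mybl2. Of these 9, Mcm5, Top2a and Ccna2 were not called with the replicate block. With 2 groups only, Ccna2 and Mybl2 did not pass the filter and so were not tested, and the rest of the 9 were called. By limma voom Mcm2, Tyms and Kif11 were called and the rest of the 9 were not.

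The labels do not say what libraries of the same replicate number share, and the correlation of their deviations did not exceed 0.1 for every number in any comparison, so the numbers were not taken as a pairing. Same-numbered libraries correlated at -0.0778 to 0.260 in HFD versus CON, at -0.547 to 0.105 in ZXD versus HFD and at -0.158 to 0.0149 in ZXD versus CON. Between HFD and CON, libraries numbered 1, 2 and 3 correlated at 0.244, 0.215 and 0.260, each best with its own number, and those numbered 4 and 5 did not. In the other comparisons no number was its own best match. With the replicate block 7 of the 22 genes were called in ZXD versus CON.

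Values that changed sign were all small and uncalled. With library totals as the scale, HFD versus CON gave log2 fold changes of 0.11 for Ccne2, 0.36 for Rrm1, 0.23 for Tk1, 0.29 for Ccnb2 and 0.050 for Bub1, ZXD versus HFD 0.038 for Kif11, and ZXD versus CON 0.15 for Ccne2. In ZXD versus HFD Ccne2 was at -0.0095 with relative log expression, -0.046 with the replicate block, -0.024 with 2 groups only, -0.036 by limma voom and -0.0070 by DESeq2. By limma voom Racgap1 was at -0.23 in HFD versus CON. When each library was left out, HFD versus CON ranged from -0.0074 to 0.11 for Mcm7, -0.14 to 0.12 for Rrm1, -0.53 to 0.11 for Ccnb2, -0.14 to 1.11 for Cenpf, -0.10 to 0.52 for Birc5, -0.19 to 0.95 for Racgap1 and -0.26 to 0.55 for Hmmr. ZXD versus HFD ranged from -0.25 to 0.12 for Ccne2, -0.46 to 0.094 for Kif11 and -0.41 to 0.071 for Kif20a, and ZXD versus CON from -0.093 to 0.16 for Tk1.

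Depth limits the mitosis genes most. Several had under 30 counts over the 5 CON libraries, among them Cdk1 with 18. Genes called in ZXD versus CON were among them too: Aurkb with 12, Nusap1 with 17, Mybl2 with 19, Kif23 with 22, Ccna2 with 24, Ect2 with 28 and Hmmr with 29. The called replication gene Rrm2 had 8. Their fold changes against CON are imprecise in size. With 5 libraries per group and a wide spread within ZXD, a p that misses the threshold does not show that levels were alike.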
